A study of Mus musculus with 22 samples.

Results

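The tumour suppressor p53, its regulators and a set of its target genes were followed in mouse embryos depleted of the histone variant H2A.Z. The 39 genes were taken by gene symbol from a list of known p53 pathway genes and targets, with the BCL2 family left out, and each symbol matched 1 of the 55335 genes measured. By role, they comprised 4 genes for p53 and its regulators, 13 for growth arrest, 14 for cell death and 8 for repair and metabolism.

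p53 is a transcription factor that is made continuously and destroyed continuously, because its target Mdm2 marks it for degradation, while the related Mdm4 blocks its activity. DNA damage and other stresses loosen this hold, and p53 then switches on genes that halt the cell cycle, start cell death, repair DNA or slow growth. In mouse embryos, loss of Mdm2 is lethal around implantation unless p53 is lost as well.

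RNA-seq with the Smart-seq2 protocol, which amplifies polyadenylated RNA as full-length cDNA, covered 22 libraries of 15 pooled embryos each, with B6D2F1 as the strain label. Per the study's methods, both parents were B6D2F1, itself a cross of C57BL/6 and DBA/2, and the females were 8 weeks old and superovulated. 2-cell embryos were taken at up to 44 h, morulae at 78 h and blastocysts at 94 h after injection of human chorionic gonadotropin, with 4 control libraries per stage and 3, 3 and 4 KD libraries. For the KD, zygotes received about 10 pl of a 20 µM mix of siRNAs against H2A.Z at 20 to 22 h. The study's qPCR methods name embryos without injection as controls. For these RNA-seq libraries the treatment of the control embryos is not stated. The KD and the injection itself therefore cannot be told apart, nor can the single siRNAs of the mix. The study reports that fewer KD than control embryos formed blastocysts, while development to morulae was not affected. How the KD embryos of the blastocyst libraries were chosen is not stated. An effect of the KD on these genes, a delay and a selection of embryos therefore cannot be told apart in blastocysts. Levels are FPKM, the fragments assigned to a gene scaled to its length and to the mapped fragments of the library, as the authors deposited them. Values of a group are listed in the order of the replicate numbers in the sample titles, which are 1, 2, 4 and 5 (control) and 1, 2 and 4 (KD) for 2-cell embryos, 1, 2, 7 and 8 and then 1, 2 and 6 for morulae, and 1, 4, 5 and 6 in both groups of blastocysts. Fold changes are on the scale of log2(FPKM + 1) and understate changes of low genes, and genes with an adjusted p under 0.05 in limma are called higher or lower, or DEGs where the log2 fold change also exceeded 1 in size. In brackets, a value without a name before an adjusted p is a log2 fold change. The study's methods report at least 3 repeats of experiments other than the chromatin profiling, but the labels do not tie libraries to repeats or cultures, so p-values measure the spread between libraries.

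The KD was checked first on its target. H2afz, which encodes H2A.Z, had FPKM of 1244, 1236, 905 and 1178 in control and 415, 139 and 112 in KD 2-cell embryos. In morulae, H2afz was at 1158, 1336, 1511 and 1421 in control and 30.3, 25.7 and 29.0 in KD libraries, and in blastocysts it was at 2656, 2431, 1945 and 2055 against 64.2, 67.2, 53.2 and 57.6. Each KD library lay below each control library of its stage, and KD replicate 1 was the highest of the 2-cell KD libraries. On the log2 scale H2afz fell by 5.41 in morulae (SE 0.17, adjusted p = 9.72e-08) and by 5.19 in blastocysts (SE 0.20, adjusted p = 3.63e-08). In 2-cell embryos its log2 fold change was -2.53 (SE 0.38) with an adjusted p of 0.544, which did not pass, and without KD replicate 1 it was -3.12 with an adjusted p of 0.000909. H2afv, the gene of the closely related H2A.Z isoform, averaged 101 ± 8.75 (SD, n = 4) and 11.3 ± 1.51 (SD, n = 3) FPKM in control and KD morulae and was also lower (log2 fold change -2.94, adjusted p = 2.92e-06), as it was in blastocysts (-1.86, adjusted p = 7.98e-05). Since each library pools whole embryos, fewer cells of a type and less RNA per cell cannot be told apart.

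Of the 39 genes, 35 reached an FPKM of 1 in at least 3 libraries of some stage and were tested there, 23 of them at all 3 stages. Rprm, Fas, Xpc and Gdf15 passed this filter at no stage. In 2-cell embryos 27 were tested, in morulae 30 and in blastocysts 33. Gadd45g and Pidd1 in 2-cell embryos, Ppm1d, Apaf1, Zmat3 and Sesn2 in morulae, and Ppm1d, Plk3, Gadd45a, Pidd1, Zmat3 and Sesn2 in blastocysts passed with fewer than 3 control libraries at 1 FPKM. Of these, Pidd1 and Zmat3 in blastocysts passed through KD libraries alone, so counts over tested genes describe those genes and not all 39.

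At the 2-cell stage, limma called 0 of the 27 tested members higher and 0 lower, as it called 0% and 0% of all 12160 genes tested. At an unadjusted p under 0.05 there was 1 member, Gtse1 (log2 fold change -0.46), and 701 genes in all. The median log2 fold change of the members was -0.06, against 0.00 over all genes. In morulae, 7 of 30 members were called higher and 0 lower, where limma called 4.22% of all 10989 genes higher and 9.05% lower. There were 5 upregulated and 0 downregulated DEGs among them, against 1% and 2.59% of all genes, and 15 members had an unadjusted p under 0.05, as had 3350 genes in all. Their median log2 fold change was 0.46 against 0.02 over all genes, and 25 of 30 had a positive one, against 51.6% of all genes. Without the filter on low FPKM, where 32900 genes were tested, 3 members were called higher, all of them DEGs. Mdm2, Btg1, Btg2 and Trp53inp1 were then not called, with unchanged fold changes. Of all genes, 129 were higher and 283 lower without the filter, against 464 and 995 with it. With a pseudocount of 5 in place of 1, 3 members were upregulated DEGs.

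Blastocysts had 27 members called higher, 2 lower and 4 not called among the 33 tested, where 16.7% of all 11828 genes were higher and 19.8% lower. The DEGs among them were 17 upregulated and 0 downregulated, against 6.1% and 7.76% of all genes, with 29 members and 5440 genes in all at an unadjusted p under 0.05. These counts include Ppm1d, Plk3, Gadd45a, Pidd1, Zmat3 and Sesn2, all called higher and with fewer than 3 control libraries at 1 FPKM. They met the filter only with the KD libraries, where they are high, and Plk3, Gadd45a and Sesn2 are among the DEGs. The median log2 fold change was 1.02 for the members and 0.00 for all genes. By role, limma called higher 3 of 4 tested genes for p53 and its regulators, 11 of 11 for growth arrest, 9 of 12 for cell death and 4 of 6 for repair and metabolism. In morulae the same groups had 1 of 4, 5 of 10, 1 of 11 and 0 of 5 called higher. Control replicate 1 was the highest control morula library for 18 of the 30 members, and without it 12 members were called higher and 8 were upregulated DEGs. Of all 10684 genes tested without it, 558 were higher and 1186 lower, against 464 and 995 of 10989 with it. Among blastocyst libraries, control replicate 1 was the lowest control for 21 of 33 members and KD replicate 1 the highest KD library for 19; the number called higher lay between 23 and 27 when any single library was left out. The number called lower was 0 without control replicate 4 or 5 or KD replicate 6, and 1 without KD replicate 1, 4 or 5. Without the filter, where 34540 genes were tested, the calls of Mdm4, Ppm1d, Sfn, Gadd45a, Aen, Pidd1 and Casp9 were lost (adjusted p from 0.0550 to 0.122), so that 0 members were lower. Of all genes, 1799 were higher and 2068 lower without the filter, against 1977 and 2344 with it. With FPKM as deposited the calls of Casp9, Polk and Apaf1 were lost (adjusted p of 0.0503, 0.0509 and 0.0720), and with a pseudocount of 5, 6 members were upregulated DEGs.

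**Figure D1:**
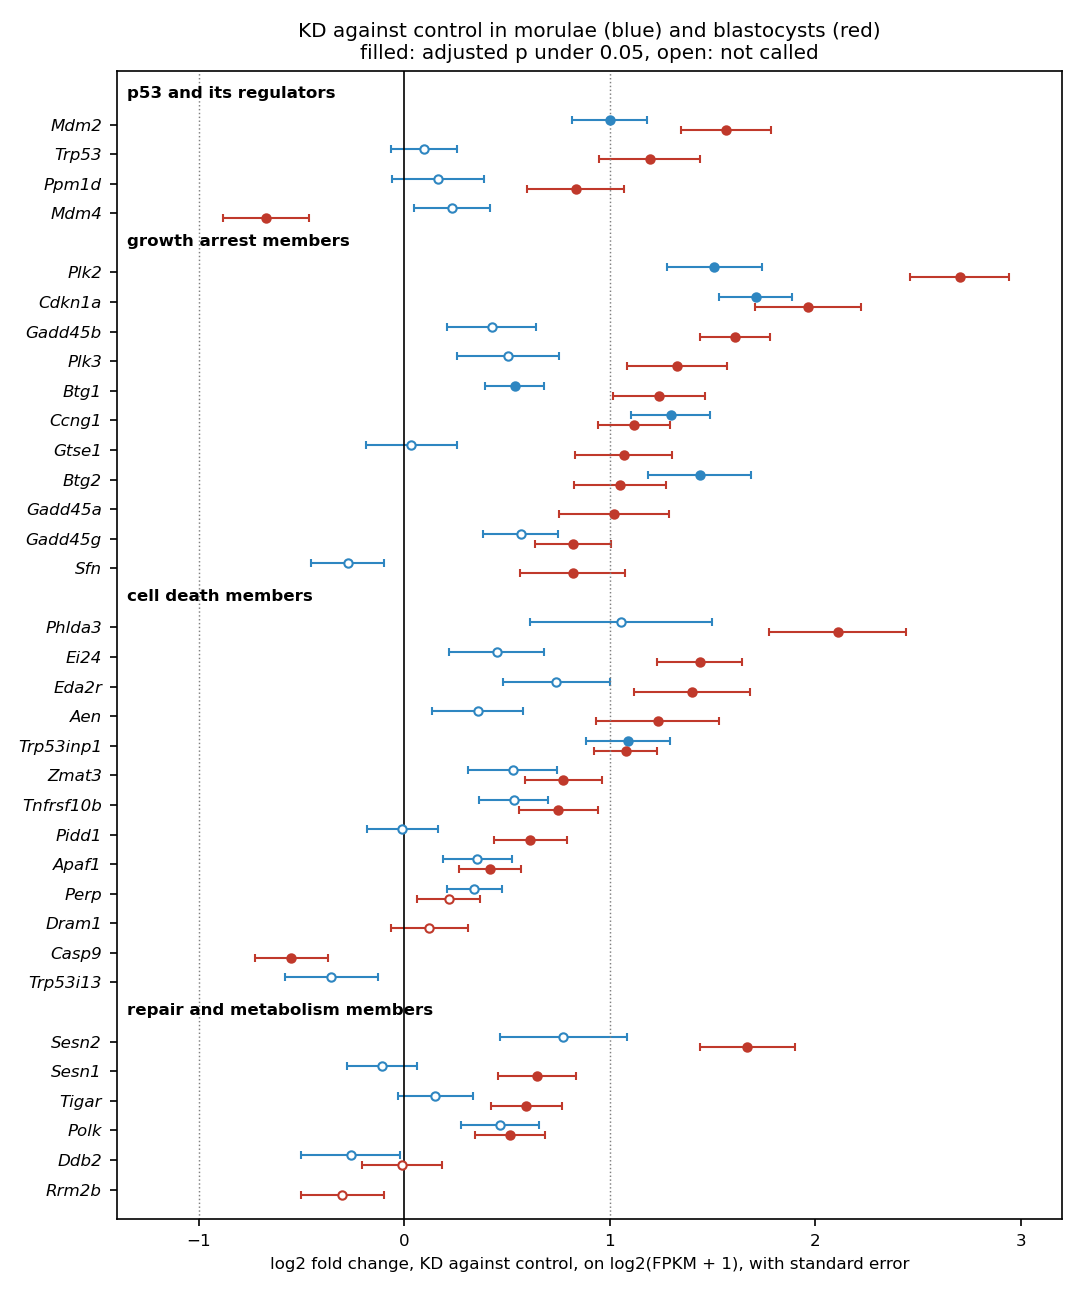
Log2 fold change of KD against control on log2(FPKM + 1), with its standard error, for each member tested in morulae (blue) or blastocysts (red), ordered by role and by size in blastocysts; filled points were called at an adjusted p under 0.05 in limma, open points were not, and dotted lines mark a log2 fold change of 1 in either direction. Plk2 lies farthest right in blastocysts at 2.70 and Cdkn1a in morulae at 1.71, and Mdm4 and Casp9 are the 2 filled points left of 0.

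Among p53 and its regulators, Trp53, Mdm2 and Ppm1d rose in KD blastocysts and Mdm4 fell, while in morulae Mdm2 alone of the 4 was called. Trp53, the gene of p53, was at 48.2, 33.1, 27.8 and 34.9 FPKM in control and 38.6, 33.0 and 32.6 in KD morulae, and the groups overlapped. In blastocysts Trp53 was at 12.7, 22.8, 39.9 and 28.4 FPKM in controls and 49.5, 48.5, 75.9 and 53.8 in KD. The lowest KD blastocyst library was above the highest control, and control replicate 1 was the lowest of the 8. Trp53 was called in blastocysts (log2 fold change 1.19, SE 0.25, adjusted p = 0.00279) and not in morulae (0.10, adjusted p = 0.721). At the 2-cell stage Trp53 ranged from 7.37 to 24.8 FPKM over the 7 libraries, with controls at 7.89, 11.2, 24.8 and 15.2 and KD at 7.37, 9.11 and 9.82, and was not called (-0.52, adjusted p = 0.828).

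Mdm2, the ubiquitin ligase that p53 itself induces, was at 21.9, 13.0, 11.3 and 14.1 FPKM in control and 30.7, 25.4 and 27.2 in KD morulae. In blastocysts Mdm2 was at 8.20, 15.2, 20.7 and 17.1 FPKM in controls and 47.2, 33.2, 54.9 and 46.4 in KD. All KD libraries exceeded all controls at both stages, by the least between control replicate 1 (21.9 FPKM) and KD replicate 2 in morulae. Mdm2 rose by 1.00 in morulae (SE 0.18, adjusted p = 0.00821, or 0.0530 without the filter) and by 1.56 in blastocysts (SE 0.22, adjusted p = 0.000246). In 2-cell embryos it averaged 41.0 ± 4.53 (SD, n = 4) FPKM in controls and 40.7 ± 2.26 (SD, n = 3) in KD.

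Mdm4, the inhibitor that binds p53 without degrading it, went the other way in blastocysts. Its FPKM were 7.30, 8.52, 10.4 and 8.75 in control and 9.73, 10.9 and 8.14 in KD morulae, which overlapped. In blastocysts they were 8.49, 19.3, 16.9 and 11.7 in controls and 8.64, 7.93, 7.99 and 7.53 in KD, and control replicate 1 lay below the highest KD library while the other controls lay above all KD libraries. Mdm4 was called lower in blastocysts (log2 fold change -0.67, SE 0.21, adjusted p = 0.0249), but not without control replicate 4 or 5 or KD replicate 5 or 6 (adjusted p from 0.0581 to 0.0800). Ppm1d, a phosphatase that acts on p53 and on the kinases above it, was at 0.945, 0.314, 1.35 and 0.263 FPKM in control and 2.49, 1.09, 2.66 and 1.89 in KD blastocysts. Only KD replicate 4 was below the highest control. The rise of Ppm1d (log2 fold change 0.83, SE 0.24, adjusted p = 0.0157) was not called without control replicate 4 (adjusted p = 0.0529). In morulae Ppm1d stood at 1.31, 1.28, 0.698 and 0.166 FPKM in controls and 0.937, 1.05 and 0.777 in KD, overlapping and not called (0.16, adjusted p = 0.657).

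**Figure D2:**
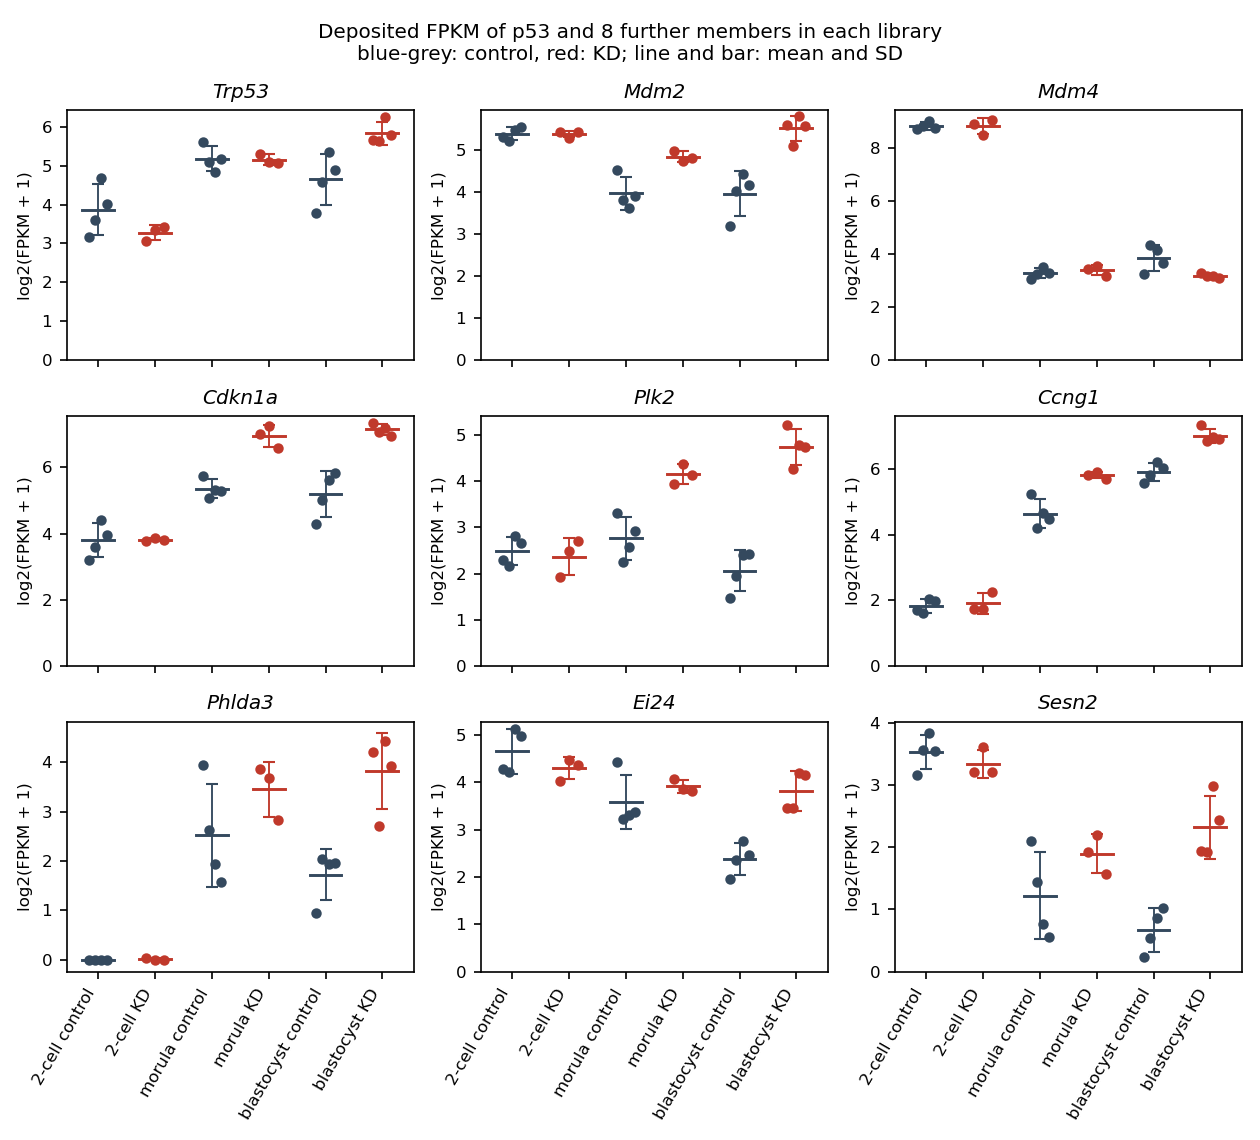
Deposited levels of 9 members in each of the 22 libraries, as log2(FPKM + 1), by stage and group, with control libraries in blue-grey and KD libraries in red; lines are group means and bars are the SD. KD morulae and KD blastocysts lie above all controls of their stage for Mdm2, Cdkn1a, Plk2 and Ccng1, and 2-cell embryos hold the highest Mdm4, with a control mean of 456 FPKM.

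In the growth arrest group, Cdkn1a, Plk2, Ccng1, Btg2 and Btg1 rose in both KD morulae and KD blastocysts. Cdkn1a encodes p21, the inhibitor of cyclin-dependent kinases. Its FPKM were 52.6, 32.4, 38.9 and 38.2 in control and 128, 149.8 and 94.0 in KD morulae. Blastocyst libraries had 18.4, 31.4, 48.5 and 55.7 in controls and 161, 133, 146 and 123 in KD. The groups were apart at both stages, with the lowest KD library above the highest control. The increase was 1.71 on the log2 scale in morulae (SE 0.18, adjusted p = 0.000890) and 1.96 in blastocysts (SE 0.26, adjusted p = 0.000169), and KD and control 2-cell embryos averaged 13.1 ± 0.458 (SD, n = 3) and 13.5 ± 5.15 (SD, n = 4) FPKM.

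Plk2, a stress-responsive kinase of the polo-like family, was at 8.997, 3.73, 4.93 and 6.53 FPKM in control and 14.4, 19.8 and 16.6 in KD morulae. In blastocysts it was at 1.78, 2.87, 4.26 and 4.35 FPKM in controls and 36.4, 18.3, 26.4 and 25.6 in KD. Again no KD library fell within the controls, and KD replicate 4 was the lowest and KD replicate 1 the highest of the KD blastocysts. Plk2 rose by 1.51 in morulae (SE 0.23, adjusted p = 0.00454) and by 2.70 in blastocysts (SE 0.24, adjusted p = 1.39e-05), the largest log2 fold change of a member at either stage. Plk3, a kinase of the same family, was at 0.449, 0.6996, 1.91 and 0.851 FPKM in control and 4.12, 2.08, 5.77 and 3.77 in KD blastocysts. Its lowest KD library was just above its highest control, replicate 5. Plk3 was called in blastocysts (log2 fold change 1.33, SE 0.24, adjusted p = 0.00141), and in morulae it averaged 2.74 ± 0.877 (SD, n = 4) in control and 4.12 ± 1.82 (SD, n = 3) FPKM in KD libraries, which overlapped (0.50, adjusted p = 0.197). Without KD replicate 6, limma called Plk3 higher in morulae (0.81, adjusted p = 0.0374).

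Ccng1, the gene of cyclin G1, an early p53 target that acts on Mdm2 through a phosphatase, was at 36.8, 17.4, 24.6 and 21.6 FPKM in control and 56.1, 59.8 and 51.8 in KD morulae. Blastocysts had Ccng1 at 47.0, 56.5, 73.7 and 64.8 FPKM in controls and 161, 115, 126 and 121 in KD. Control and KD libraries were apart at both stages. The rise was 1.30 in morulae (SE 0.19, adjusted p = 0.00429) and 1.12 in blastocysts (SE 0.17, adjusted p = 0.000510). Btg2, an antiproliferative protein that binds the mRNA deadenylation complex, was at 3.19, 0.945, 2.87 and 2.74 FPKM in control and 7.46, 8.10 and 6.47 in KD morulae. Its blastocyst levels were 7.998, 9.85, 10.8 and 10.8 FPKM in controls and 29.2, 23.5, 15.4 and 19.1 in KD. No KD library overlapped the controls, among which replicate 2 was the lowest in morulae. Btg2 rose in morulae (log2 fold change 1.44, SE 0.25, adjusted p = 0.00714, or 0.0612 without the filter) and in blastocysts (log2 fold change 1.05, SE 0.22, adjusted p = 0.00333).

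Btg1, which is related to Btg2, was at 18.3, 16.5, 14.04 and 17.3 FPKM in control and 22.6, 22.1 and 22.3 in KD morulae, close together within each group. In blastocysts Btg1 was at 3.50, 5.45, 7.04 and 6.87 FPKM in controls and 18.6, 10.8, 18.8 and 11.2 in KD, with replicates 4 and 6 lower than the other 2 KD libraries and all of them above the controls. The blastocyst rise was a DEG (log2 fold change 1.24, SE 0.23, adjusted p = 0.00132). The smaller rise in morulae (log2 fold change 0.54, SE 0.14, adjusted p = 0.0334) was not called without control replicate 2 or 7 or any of the 3 KD libraries (adjusted p from 0.0671 to 0.114), nor without the filter (adjusted p = 0.0570) or with FPKM as deposited (adjusted p = 0.0648). The rise of Btg1 in morulae was also not called with a replicate block. Gtse1, a microtubule-binding protein that can move p53 out of the nucleus, was at 4.10, 7.24, 12.4 and 7.25 FPKM in control and 13.8, 12.7, 22.4 and 17.4 in KD blastocysts. The lowest KD library, replicate 4, barely exceeded the highest control, replicate 5. Gtse1 rose in blastocysts (log2 fold change 1.07, SE 0.24, adjusted p = 0.00424), and in morulae its means were 9.01 ± 4.003 (SD, n = 4) in control and 8.04 ± 1.03 (SD, n = 3) FPKM in KD (0.03, adjusted p = 0.931).

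The 3 Gadd45 genes encode small stress proteins that bind p21 and activate stress kinase signalling, and all 3 were higher in KD blastocysts. Gadd45b was at 1.67, 1.68, 2.45 and 1.65 FPKM in controls and 6.46, 6.50, 8.87 and 9.10 in KD, far apart (log2 fold change 1.61, SE 0.17, adjusted p = 3.93e-05). Gadd45a was at 0.778, 0.669, 0.413 and 1.13 FPKM in controls and 3.53, 1.72, 1.30 and 4.24 in KD, with KD replicate 5 close to control replicate 6 (log2 fold change 1.02, SE 0.27, adjusted p = 0.0109). The Gadd45g mean went from 4.86 ± 0.902 (SD, n = 4) to 9.23 ± 1.08 (SD, n = 4) FPKM, a called increase that was not a DEG (0.82, adjusted p = 0.00481). In morulae neither Gadd45b (0.42, adjusted p = 0.217) nor Gadd45g (0.57, adjusted p = 0.0665) was called. Without morula control replicate 1, limma called Gadd45g higher there (0.67, adjusted p = 0.0268). Gadd45a did not pass the filter in morulae, where its control libraries were at 0.594, 0.498, 0.624 and 0.449 FPKM and its KD libraries at 0.956, 1.10 and 1.14, so that each KD library was above each control; without the filter it was not called there (0.48, adjusted p = 0.0885).

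Sfn, or stratifin, which keeps mitotic cyclin B complexes in the cytoplasm, was the most abundant member of the growth arrest group in morulae and blastocysts, at a control mean of 452 ± 115 (SD, n = 4) and 149 ± 63.5 (SD, n = 4) FPKM. KD blastocysts averaged 249.95 ± 65.1 (SD, n = 4) FPKM and were called higher (0.82, adjusted p = 0.0253), with overlapping libraries, but not without control replicate 1 or 6 or KD replicate 1, 5 or 6 (adjusted p from 0.0558 to 0.0733). KD morulae averaged 336 ± 50.4 (SD, n = 3) and were not called (-0.28, adjusted p = 0.325). Ccng2, the gene of the atypical cyclin G2, was tested only in 2-cell embryos, at 17.3 ± 2.51 (SD, n = 4) FPKM in control and 15.3 ± 2.46 (SD, n = 3) in KD, and did not exceed 1.64 FPKM in any morula or blastocyst library. Rprm, a mediator of arrest before mitosis, was at 0 in every 2-cell library and at most 0.174 FPKM elsewhere.

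Trp53inp1 was the cell death gene called at both stages; its product assists p53 and takes part in autophagy. Its FPKM were 6.89, 4.55, 5.59 and 3.65 in control and 10.9, 14.2 and 8.29 in KD morulae. In blastocysts Trp53inp1 was at 5.56, 5.82, 5.71 and 5.65 FPKM in controls and 13.4, 11.1, 14.5 and 13.4 in KD. The 4 control blastocysts lay close together, and KD libraries were above all controls at both stages. Trp53inp1 rose by 1.09 in morulae (SE 0.20, adjusted p = 0.00937, or 0.0606 without the filter) and by 1.08 in blastocysts (SE 0.15, adjusted p = 0.000273). Phlda3, which encodes a repressor of the survival kinase Akt, was at 0.925, 3.14, 2.81 and 2.91 FPKM in control and 17.4, 5.52, 20.6 and 14.2 in KD blastocysts. KD replicate 4 was the lowest KD library and was still above all controls. Its increase in blastocysts (log2 fold change 2.11, SE 0.33, adjusted p = 0.000541) was the largest of the cell death group. In morulae the Phlda3 libraries ranged widely, with 14.4, 5.16, 2.85 and 1.96 FPKM in controls and 13.5, 11.9 and 6.07 in KD, and the highest was control replicate 1 (1.05, adjusted p = 0.139). Without that library, limma called Phlda3 higher in morulae (1.46, adjusted p = 0.0175).

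Ei24 encodes a membrane protein of the endoplasmic reticulum that was found as a p53-induced gene. It was at 2.87, 4.13, 5.80 and 4.52 FPKM in control and 9.92, 9.99, 17.2 and 16.9 in KD blastocysts, with replicates 5 and 6 the highest in KD and no overlap. Ei24 rose in blastocysts (log2 fold change 1.44, SE 0.21, adjusted p = 0.000290). Eda2r, a receptor of the tumour necrosis factor family, was at 2.15, 2.24, 4.08 and 3.85 FPKM in controls and 15.1, 11.0, 6.51 and 7.13 in KD. All KD libraries exceeded the controls, replicates 1 and 4 the most (log2 fold change 1.4, SE 0.28, adjusted p = 0.00239). Aen, a nuclease that takes part in apoptosis, was at 5.15, 11.8, 4.75 and 5.53 FPKM in controls and 21.3, 11.7, 25.4 and 10.9 in KD. Control replicate 4 was above KD replicates 4 and 6, so the groups overlapped, and Aen was called all the same (log2 fold change 1.23, SE 0.30, adjusted p = 0.00700). In morulae, the log2 fold changes of Ei24, Eda2r and Aen were 0.45, 0.74 and 0.36, with adjusted p of 0.218, 0.0834 and 0.301. There limma called Eda2r higher with a replicate block (0.85, adjusted p = 0.0105) or without control replicate 7 (0.95, adjusted p = 0.0307). Ei24 was called higher in morulae without control replicate 1 (0.67, adjusted p = 0.0167).

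Of the other death genes, Zmat3, an RNA-binding zinc finger protein, Tnfrsf10b, a receptor for the death ligand Trail, Pidd1, a scaffold for caspase activation, and Apaf1, the core of the apoptosome, were called higher in blastocysts without being DEGs. Their mean FPKM went from 0.520 to 1.59 for Zmat3 (0.77, adjusted p = 0.00696), and from 5.53 to 9.72 for Tnfrsf10b (0.75, adjusted p = 0.00950). Pidd1 went from 0.753 to 1.73 FPKM (0.61, adjusted p = 0.0171) and Apaf1 from 1.82 to 2.77 (0.42, adjusted p = 0.0476). Zmat3 passed the filter through KD replicates 1, 5 and 6 and was not tested when any 1 of them was left out. Apaf1 was not called without any single blastocyst library other than KD replicate 4 (adjusted p from 0.0753 to 0.107). In morulae none of these 4 genes was called. Without morula control replicate 1, limma called Zmat3 higher there (0.71, adjusted p = 0.0163), when it passed the filter through KD libraries alone. With upper quartile scaling Tnfrsf10b was called higher in morulae (0.58, adjusted p = 0.0478). In blastocysts Casp9, the caspase that Apaf1 activates, went down from 1.99 to 1.04 FPKM (log2 fold change -0.55, SE 0.18, adjusted p = 0.0281), with KD replicate 5 inside the control range. Casp9 reached 1 FPKM in 4 control and 1 KD blastocyst library, so it was tested because of the controls, where it is high. The call was lost without control replicate 4 or 5 or KD replicate 1, 4 or 6 (adjusted p from 0.0560 to 0.0767).

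Perp, a p53 target in cell-cell junctions, was the most abundant death gene in morulae and blastocysts and was not called, at 91.6 ± 18.8 (SD, n = 4) FPKM in control and 104 ± 4.47 (SD, n = 4) in KD blastocysts (0.22, adjusted p = 0.292). Dram1, a lysosomal inducer of autophagy, was not called either (0.12, adjusted p = 0.649), with means of 2.14 and 2.42 FPKM. The p53-inducible gene Trp53i13 was below the filter in blastocysts and not called in morulae (-0.36, adjusted p = 0.315). Fas, the receptor of Fas ligand, stayed below the filter, yet its blastocyst libraries were at 0, 0, 0.00547 and 0.134 FPKM in controls and 1.92, 0.868, 1.14 and 0.157 in KD. Morulae had Fas at 0.00531, 0.0155, 0.0248 and 0.0185 FPKM in controls and 0.819, 0.198 and 0.155 in KD. At both stages each KD library had a higher Fas level than each control; in the fit without the filter Fas was not called in blastocysts (0.90, adjusted p = 0.0740) or morulae (0.43, adjusted p = 0.229).

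Within repair and metabolism, the 2 sestrins, which restrain growth signalling through mTOR complexes, were higher in KD blastocysts. Sesn2 was at 0.175, 0.458, 0.815 and 1.03 FPKM in controls and 2.82, 2.80, 6.94 and 4.44 in KD, without overlap (log2 fold change 1.67, SE 0.23, adjusted p = 0.000236). Its morula libraries, at 3.30, 1.71, 0.706 and 0.478 FPKM in controls and 2.79, 3.60 and 1.97 in KD, overlapped and were not called (0.77, adjusted p = 0.121). Without morula control replicate 1, limma called Sesn2 higher in morulae (1.01, adjusted p = 0.0279). Sesn1 went from 3.80 ± 1.12 (SD, n = 4) to 6.33 ± 1.06 (SD, n = 4) FPKM in blastocysts (0.65, adjusted p = 0.0183). Tigar, a phosphatase that turns glucose use away from glycolysis, went from 57.0 ± 4.77 (SD, n = 4) to 86.4 ± 10.7 (SD, n = 4) FPKM (0.59, adjusted p = 0.0171). Polk, a polymerase that copies past DNA lesions, went from 1.99 ± 0.397 (SD, n = 4) to 3.26 ± 0.646 (SD, n = 4) (0.51, adjusted p = 0.0322) and was not called without control replicate 1, 4 or 5 or KD replicate 1 or 5 (adjusted p from 0.0616 to 0.0788).

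With the filter, the remaining repair genes were not called in blastocysts or were not tested there. Ddb2, which recognises ultraviolet damage, averaged 6.28 ± 1.44 (SD, n = 4) FPKM in control and 6.12 ± 0.843 (SD, n = 4) in KD blastocysts (-0.01, adjusted p = 0.974). Rrm2b, the p53-inducible subunit of ribonucleotide reductase, averaged 1.44 ± 0.551 (SD, n = 4) and 0.945 ± 0.195 (SD, n = 4) (-0.30, adjusted p = 0.266). Xpc, the partner of Ddb2 in damage recognition, was below 1 FPKM in every library of the series. Gdf15, a secreted stress signal, was at 0, 0.0873, 0.0317 and 0.0534 FPKM in control and 0.898, 0.521, 0.580 and 0.279 in KD blastocysts, each KD library above each control but all of them under the filter; in the fit without it Gdf15 was called higher in blastocysts (0.58, adjusted p = 0.0248).

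Whether the KD effect differed between the stages was tested as an interaction over the 15 morula and blastocyst libraries, for 34 members. It was larger in blastocysts for 3 members and smaller for 1, where 5.43% of all 12727 genes were higher and 6.3% lower. In both directions together this was 11.8% of the members and 11.7% of all genes, so the count says nothing particular about the members. The difference of the 2 log2 fold changes was 1.06 for Trp53 (SE 0.32, adjusted p = 0.0410), 1.14 for Plk2 (SE 0.36, adjusted p = 0.0461) and 1.14 for Gadd45b (SE 0.27, adjusted p = 0.0116). For Mdm4 it was -0.94 (SE 0.29, adjusted p = 0.0424). Gadd45b was called with any single library left out and under every other setting. The calls of Trp53, Plk2 and Mdm4 were lost in 11, 11 and 10 of the 15 fits that left out 1 library, with adjusted p of up to 0.0876, 0.119 and 0.112. All 3 were also lost without the filter (adjusted p from 0.110 to 0.145), Mdm4 with FPKM as deposited (adjusted p = 0.0855) and Plk2 with a pseudocount of 5 (adjusted p = 0.0560). All 3 were lost without morula control replicate 1 or 8, any KD morula library, blastocyst control replicate 4, or blastocyst KD replicate 5 or 6. Trp53 and Mdm4 were also lost without morula control replicate 2, Plk2 without morula control replicate 7, Trp53 and Plk2 without blastocyst control replicate 1 or KD replicate 1, and Mdm4 without blastocyst control replicate 5. The number larger in blastocysts was 1 in each fit that lost both Trp53 and Plk2, 6 without blastocyst control replicate 5 and 5 without KD replicate 4, and the number smaller was 0 in each fit that lost Mdm4. For the other 30 members, among them Cdkn1a (0.21, adjusted p = 0.737) and Mdm2 (0.52, adjusted p = 0.272), the test showed no difference between the stages that passed. The interaction uses the same libraries as the comparisons within a stage.

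The control libraries show how these genes behave without KD. From 2-cell embryos to morulae, 14 of 34 tested members rose and 14 fell, where limma called 40.6% of all 14686 genes higher and 40.4% lower. Mdm4 was the most abundant member in 2-cell embryos, at 417, 453, 525 and 430.1 FPKM in controls (KD libraries had 484, 365 and 539), and averaged 8.75 ± 1.29 (SD, n = 4) in morulae (-5.72, adjusted p = 1.63e-12). Rrm2b went from 46.7 ± 3.42 (SD, n = 4) to 0.727 ± 0.204 (SD, n = 4) FPKM (-4.93, adjusted p = 8.86e-12), and Ccng2, Gadd45a, Ppm1d and Trp53inp1 had log2 fold changes of -4.11, -3.48, -2.63 and -2.56. Ccng2 and Gadd45a each reached 1 FPKM in 4 control 2-cell, 0 control morula and 1 control blastocyst library. Both were therefore tested because of the stage where they are high, and they count among the 14 that fell. Rrm2b reached 1 FPKM in 4 control 2-cell, 0 control morula and 3 control blastocyst libraries. Mdm2 also fell, from 41.0 ± 4.53 (SD, n = 4) to 15.1 ± 4.71 (SD, n = 4) FPKM (-1.59, adjusted p = 3.48e-06). In the other direction, Sfn went from 3.59 ± 1.65 (SD, n = 4) to 452 ± 115 (SD, n = 4) FPKM (6.52, adjusted p = 2.46e-11) and Perp from 0.214 ± 0.148 (SD, n = 4) to 44.5 ± 7.89 (SD, n = 4) (5.15, adjusted p = 4.12e-13). Ccng1, Eda2r, Phlda3, Cdkn1a and Trp53 rose as well, with log2 fold changes of 2.68, 2.56, 2.47, 1.4 and 1.16. Phlda3 was listed at 0 in all 4 control 2-cell libraries. Perp, Eda2r and Phlda3 each reached 1 FPKM in 0 control 2-cell and 4 control morula libraries. They too were tested because of stages where they are high.

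From control morulae to control blastocysts, 8 of 34 members rose and 11 fell, where 24.4% of all genes were higher and 21.7% lower. Btg2, Ccng1 and Perp rose (1.69, 1.26 and 1.01 on the log2 scale, with adjusted p of 8.03e-06, 3.74e-05 and 7.52e-05). Sfn, Btg1, Ei24 and Tigar fell the most, with log2 fold changes of -1.67, -1.42, -1.20 and -1.14 and adjusted p of at most 0.000683. Of the 17 upregulated DEGs of KD blastocysts, Plk2, Plk3, Gadd45b, Btg1, Ei24, Eda2r and Aen fell between these control stages, but Plk2 not without morula control replicate 1 or blastocyst control replicate 1 (adjusted p of 0.0563 and 0.0588) and Aen not without morula control replicate 2 or blastocyst control replicate 5 or 6 (adjusted p from 0.0520 to 0.0616). Without the filter neither Plk2 nor Aen was called (adjusted p of 0.0506 and 0.0799), and with a pseudocount of 0.1 Eda2r was not (adjusted p = 0.0659). The number that rose was 5 without morula control replicate 2 or blastocyst control replicate 5, as it was without the filter.

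KD blastocysts were therefore also set against control morulae, a comparison chosen after the data were seen, which shares its KD libraries with the comparison within blastocysts. Here 21 of 34 members were higher and 3 lower, against 16.9% and 19.7% of all 12727 genes. Cdkn1a was 1.73 above control morulae on the log2 scale (adjusted p = 2.99e-05), Mdm2 1.49 (adjusted p = 2.94e-05), Plk2 1.93 (adjusted p = 1.26e-05) and Btg2 2.70 (adjusted p = 3.32e-07). Btg1, Plk3, Eda2r, Aen and Ei24, which fell between the control stages, were not called against control morulae (log2 fold changes of -0.25, 0.32, 0.38, 0.17 and 0.18, adjusted p of at least 0.316). The 3 lower members were Sfn (-0.92, adjusted p = 0.00550), Trp53i13 (-0.94, adjusted p = 0.00119) and Tigar (-0.61, adjusted p = 0.00977).

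A further list held 30 p53 targets outside the 39. Of these, 13 were tested in morulae, with 2 higher and 0 lower at a median log2 fold change of 0.45, and 17 in blastocysts, with 7 higher and 2 lower at a median of 0.17, where 4.22% and 9.05% of all genes were higher and lower in morulae and 16.7% and 19.8% in blastocysts; at the 2-cell stage, 0 of 9 were called in limma and 1 had an unadjusted p under 0.05. The 4 with the smallest adjusted p in blastocysts were Dcxr, a carbonyl reductase (1.47, adjusted p = 0.000246), Tap1, a peptide transporter of antigen presentation (1.06, adjusted p = 0.000544), Ptp4a3, a phosphatase (1.5, adjusted p = 0.000672), and Slc19a2, a thiamine transporter (1.27, adjusted p = 0.00283). Tap1 and Ptp4a3 reached 1 FPKM in KD blastocysts only and were tested through those libraries. Dcxr was higher in morulae too (1.61, adjusted p = 0.00950). Psrc1, named after its values were seen, was the other gene higher in morulae (0.59, adjusted p = 0.0330), not called without control replicate 2, 7 or 8 or any KD library (adjusted p from 0.0585 to 0.148). The 2 that fell in blastocysts, named likewise, were Tnfaip8 (-0.99, adjusted p = 0.00334) and Pltp (-1.01, adjusted p = 0.0112). Pltp reached 1 FPKM in 4 control and 1 KD blastocyst library, so it was tested because of the controls, where it is high. Without the filter, Dcxr and Psrc1 in morulae and Pltp in blastocysts were not called (adjusted p of 0.0843, 0.0845 and 0.0727), nor was Psrc1 with FPKM as deposited (adjusted p = 0.0715).

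Kinases, acetyltransferases, ubiquitin ligases and other factors upstream of p53 formed a list of 25 genes. Among them 0 of 21 were called in 2-cell embryos (3 at an unadjusted p under 0.05 in limma), 2 of 17 were higher and 1 lower in morulae, and 5 of 19 were higher and 0 lower in blastocysts, with medians of 0.12, 0.23 and 0.10. In percent of the tested genes this was 11.8 higher and 5.88 lower in morulae, against 4.22% and 9.05% of all genes, and 26.3 higher and 0 lower in blastocysts, against 16.7% and 19.8%. In blastocysts Chek2, a kinase of the DNA damage checkpoint, rose the most (0.94, adjusted p = 0.00251), with every leave-one-out fit calling it. Crebbp, an acetyltransferase (0.62, adjusted p = 0.0203), was not called without control replicate 4 or KD replicate 6 (adjusted p from 0.0520 to 0.0532). Cop1, a ubiquitin ligase (0.50, adjusted p = 0.0245), was not called without control replicate 4, 5 or 6 or KD replicate 6 (adjusted p from 0.0532 to 0.0753), nor Sirt1, a deacetylase (0.66, adjusted p = 0.0261), without control replicate 4, 5 or 6 or KD replicate 5 or 6 (adjusted p from 0.0563 to 0.0774). Usp7, named after its values were seen, was the fifth (0.43, adjusted p = 0.0474), not called without any single library other than KD replicate 4 (adjusted p from 0.0706 to 0.116). Named in the same way, Kat5, an acetyltransferase of p53, fell in morulae (-1.29, adjusted p = 0.00488), where Sirt1 (0.64, adjusted p = 0.0212) and Usp7 (0.54, adjusted p = 0.0330) were the 2 higher genes; both were lost without control replicate 2 or 8 or KD replicate 1 or 2, Sirt1 also without KD replicate 6 and Usp7 without control replicate 7 (adjusted p of up to 0.0818 and 0.147). Both were lost in morulae also without the filter or with FPKM as deposited, and in blastocysts Sirt1 without the filter and Usp7 with FPKM as deposited (adjusted p from 0.0502 to 0.0850).

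Cell cycle genes that p53 is known to lower through p21 and the DREAM repressor complex, 24 in all, had calls in both directions. In 2-cell embryos 0 of 24 were called (3 at an unadjusted p under 0.05 in limma), in morulae 0 of 23 were higher and 1 lower, and in blastocysts 5 of 24 were higher and 6 lower, with medians of -0.12, -0.04 and -0.05. The blastocyst counts were 20.8% and 25% of those tested, beside 16.7% and 19.8% of all genes. The 4 smallest adjusted p in blastocysts belonged to Nek2, a centrosomal kinase (0.97, adjusted p = 0.000664), Top2a, a topoisomerase (-0.92, adjusted p = 0.00202), Ccna2, a cyclin (0.75, adjusted p = 0.00454), and Cdc25c, a phosphatase that starts mitosis (-0.94, adjusted p = 0.00882). The other genes that rose, named after their values were seen, were E2f1 (0.54, adjusted p = 0.0126), Cdc20 (0.71, adjusted p = 0.0146) and Aurka (0.46, adjusted p = 0.0289), of which E2f1 reached 1 FPKM in KD blastocysts only. The other genes that fell, named likewise, were Ccnb2 (-0.88, adjusted p = 0.0107), Mki67 (-0.64, adjusted p = 0.00890), Bub1 (-0.49, adjusted p = 0.0256) and Cenpf (-0.62, adjusted p = 0.0281). Bub1 was not called without control replicate 4 or 5 or KD replicate 1 or 4 (adjusted p from 0.0512 to 0.0604), nor Cenpf without control replicate 1 or 4 or KD replicate 1 or 5 (adjusted p from 0.0683 to 0.0853). Cdc20 was not called without control replicate 6 (adjusted p = 0.05001), nor Aurka without control replicate 1 or 6 or KD replicate 1, 4 or 6 (adjusted p from 0.0538 to 0.0908). Cdc25c was the gene that fell in morulae (-0.66, adjusted p = 0.0337), a call kept only without control replicate 1 (adjusted p from 0.0519 to 0.134 without any of the others). Without the filter, Cdc25c at both stages and Ccnb2, Cdc20 and Cenpf in blastocysts were not called (adjusted p from 0.0522 to 0.0985). Summed over the list, control blastocysts were at 2086, 2429, 2271 and 2101 FPKM and KD blastocysts at 2463, 2244, 2092 and 2416, which overlapped.

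Markers of the cell types in the embryo were followed as well, and their part in the results above was not tested. Counts for these short lists stand beside the same shares of all genes, 4.22% higher and 9.05% lower in morulae and 16.7% and 19.8% in blastocysts. The 8 trophectoderm markers were all tested in blastocysts, where 2 were higher and 2 lower, or 25% and 25%. Their summed FPKM was 999.5, 1477, 1312 and 990.1 in control and 585, 742, 787 and 605 in KD blastocysts, so all KD libraries were lower. Krt18, a keratin and the most abundant of them, fell from a mean of 799 to 389.7 FPKM (-1.02, adjusted p = 0.00126), as did Elf5 (-1.24, adjusted p = 0.000507), while Hand1 (1.36, adjusted p = 0.000125) and Tfap2c (0.96, adjusted p = 0.00675) rose. Hand1 reached 1 FPKM in KD blastocysts only and Elf5 in control blastocysts only, so each was tested because of the group where it is high. In morulae the sums were 137, 112, 133 and 148 and 106, 91.2 and 121, and of 6 tested genes Hand1 was called higher (0.99, adjusted p = 0.0481), but not without control replicate 2, 7 or 8 or KD replicate 1 or 2 (adjusted p from 0.0842 to 0.174), nor without the filter, with FPKM as deposited, a pseudocount of 0.1 or upper quartile scaling (adjusted p from 0.0505 to 0.201). No marker of this list was at 0 in all libraries of a morula or blastocyst group. In 2-cell embryos they summed to 11.1 ± 3.34 FPKM in controls and 9.17 ± 1.57 in KD, with Tfap2c the most abundant, Elf5 at 0 in both groups and Cdx2 at 0 in controls, and 0 of 2 were called (0 at an unadjusted p under 0.05 in limma).

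The 6 markers of epiblast and inner cell mass summed to 127, 137, 144 and 169 FPKM in control and 49.5, 42.2 and 58.2 in KD morulae. Of 4 tested there, Nanog, the most abundant, fell (-2.23, adjusted p = 0.00645) and Klf2 rose (0.71, adjusted p = 0.0279), the latter not without control replicate 2 or 8 or KD replicate 1 or 2 (adjusted p from 0.0505 to 0.111) or with FPKM as deposited (adjusted p = 0.0733); without the filter neither was called (adjusted p of 0.0718 and 0.0911). In blastocysts the sums were 113, 135, 222 and 135 and 138, 153, 277 and 197, overlapping, with 0 of 4 called in limma and 1 at an unadjusted p under 0.05. The 2-cell sums were 27.9 ± 9.24 in control and 25.2 ± 4.33 in KD libraries, mostly Fgf4, with 0 of 3 called and 1 at an unadjusted p under 0.05. Of the 4 primitive endoderm markers, 1 was tested at each stage and limma called 0, with 0 at an unadjusted p under 0.05; their sum was 5.10 ± 4.37 and 3.30 ± 2.32 FPKM in control and KD 2-cell embryos, mostly Gata4, 14.4 ± 9.11 and 9.84 ± 0.604 in morulae, and 13.0 ± 4.92 and 20.0 ± 12.2 in blastocysts, mostly Gata6.

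Transcripts of earlier stages were low in morulae and blastocysts. The 5 markers of the 2-cell stage, led by Zfp352, summed to 209.5 ± 32.3 FPKM in control and 200.03 ± 17.6 in KD 2-cell embryos. In blastocysts the sums were 0.787, 0.964, 0.291 and 0.716 in control and 3.08, 13.98, 3.30 and 9.55 in KD libraries, each KD library above each control, and Zfp352 rose (1.57, adjusted p = 0.00156), the 1 gene tested, which reached 1 FPKM in KD blastocysts only. Morulae were at 1.95, 1.46, 6.03 and 3.96 and 9.18, 6.47 and 4.50, with 0 of 2 called in limma and 1 at an unadjusted p under 0.05; of the 5 tested in 2-cell embryos 0 were called and 0 had such a p. The 7 oocyte markers summed to 879.5 ± 109 and 942 ± 131 FPKM in control and KD 2-cell embryos, with Oosp1 the most abundant, to 7.16 ± 2.31 and 9.30 ± 1.56 in morulae and to 2.23 ± 0.392 and 3.17 ± 1.20 in blastocysts, with Zp3 the most abundant, and limma called 0 of 7, 0 of 2 and 0 of 1 tested, with 0 at an unadjusted p under 0.05 at each stage. The 7 markers of cumulus and granulosa cells, none of which passed the filter, summed to at most 0.152 FPKM in any library, led by Cyp19a1 in control and Has2 in KD 2-cell embryos. Fshr and Ptx3 were at 0 in all 22 libraries, and all 7 were at 0 in control blastocysts.

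Promoters of the members were searched for letters that p53 is known to bind, as a description only. RefSeq promoters on GRCm38, from 250 bases before to 50 after the start, were found for 32 of the 39 genes, with 39 starts, among 32851 promoters in all. Both strands were read. p53 binds pairs of half-sites that share a core, and CATG, 6 bases and CATG again was in 0.712% of all promoters and in 1 of the 39 member promoters, that of Cdkn1a. The pair with C, 2 bases and G in place of each core was in 70.2% of all promoters and in 36 of the 39 member promoters. The p53 consensus half-site of 10 bases was in 8.36% of all promoters and in 12 of the 39 member promoters, those of 11 genes, namely Aen, Ccng1, Cdkn1a, Ei24, Gadd45a, Gtse1, Mdm2, Polk, Ppm1d, Sesn1 and Trp53, and 1 of the 2 half-sites of Cdkn1a overlaps its CATG pair. A pair of adjacent consensus half-sites was in 0.00913% of all promoters and in 0 of the 39. The sequences of Cdkn1a, Mdm2 and Ccng1, the genes with a half-site that were called higher at both stages, are printed 5′ to 3′ with the 4 core bases in capitals. They lie at chr17:29090928-29090947 for Cdkn1a, where the bases of both cores of its CATG pair are shown, chr10:117710935-117710944 for Mdm2 and chr11:40755462-40755471 for Ccng1.
Cdkn1a: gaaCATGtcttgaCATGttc
Mdm2: gaaCTTGcct
Ccng1: gggCAAGcct

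Some levels are less certain than others, because reads of overlapping or near-identical genes may be shared and no source used here states that strand was taken into account. Exons of 9 members overlap a gene on the opposite strand, over 23.8% of the exonic bases of Ddb2 (with Acp2), 19.1% for Gadd45a (E230016M11Rik), 15.2% for Trp53i13 (Abhd15) and 8.04% or less for Rrm2b, Cdkn1a, Ei24, Tigar, Plk3 and Casp9. Mdm4 shares 7.3% of its 50-base words with the pseudogene Mdm4-ps, and Sfn 11.8% with Gm7850 and 5.56% with Gm5279. H2afz shares 30.9% with Tmcc1, 16.9% with the pseudogene Gm8203 and 11.1% with Gm26623. How the authors' processing divided such reads was not given in the sources used here.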

How the data were processed

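The libraries were sequenced as paired reads of 150 bases after 16 to 18 cycles of PCR. The authors aligned reads with STAR to mm10 and computed FPKM per gene with StringTie 2.1.4; the deposited table of FPKM for 55335 genes in 22 libraries was used, with 0 columns left without a sample. Nothing was realigned and no counts were used. For each comparison, genes that reached 1 FPKM in 3 or more of the libraries fitted were kept. FPKM were divided by median-of-ratios factors, themselves divided by their geometric mean, and log2(FPKM + 1) was tested with limma 3.58.1 in R 4.3.3 (two-sided, eBayes with trend), adjusting p over all genes tested by the Benjamini-Hochberg method. The fits held the libraries of 1 stage, all morula and blastocyst libraries with the interaction of stage and treatment, or the 12 control libraries. The procedure was tested on simulated data in which 200 genes were changed by a larger size than most members here. That test does not cover smaller changes, genes near 1 FPKM or batches. Tables and figures were made with Python 3.11.15, numpy 2.4.6 and matplotlib 3.10.9, and genes were matched to GENCODE vM21 on GRCm38.

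Levels printed are deposited FPKM, without the factors. The division of the factors by their geometric mean, a batch term from the range of replicate numbers, and the comparison of KD blastocysts with control morulae were chosen after the data were seen. The members and lists were chosen with earlier results of these data known. All 39 members are named. Values per library are given for H2afz, Trp53, Mdm2, Mdm4 and Ppm1d, and for members that were DEGs in morulae or blastocysts. Further lists were other p53 targets, p53 upstream regulators, cell cycle genes lowered through p21 and DREAM, and markers of trophectoderm, epiblast and inner cell mass, primitive endoderm, the 2-cell stage, oocytes, and cumulus and granulosa cells. From each, up to 4 genes with the smallest adjusted p in blastocysts are named, with further ones marked where they were chosen after their values were seen.

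FPKM do not carry the read depth, which was estimated from the smallest steps between values at 14.8 to 28.7 relative units per library, a rule adjusted after first estimates were seen; 10143 to 12090 genes reached 1 FPKM in a library. With 3 or 4 libraries per group, differences in members near 1 FPKM are measured with little precision. Other settings tried were pseudocounts of 0.1 and 5, no filter, FPKM as deposited, upper quartile scaling, limma without trend, a replicate block and each library left out in turn.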

Additional observations from a re-analysis of the deposited data

Results flagged for a closer look

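In 9 of 123 pairs of a member and a group of 4 libraries, 1 library stood apart from the others by the share of the group's range that lies between it and its neighbour; chance flags about 1 in 20 groups, or 6.15 of these. Replicate 1 was the high library for Apaf1 in control 2-cell embryos (0.938, 11.8 FPKM against 4.54 to 4.99). In control morulae, replicate 1 was high for Gtse1 (0.875, 15.0 FPKM against 6.53 to 7.58), Ei24 (0.921, 20.4 FPKM against 8.33 to 9.29) and Zmat3 (0.897, 1.73 FPKM against 0.379 to 0.518). In control blastocysts, replicate 5 was high for Gadd45b (0.958, 2.45 FPKM against 1.65 to 1.68) and replicate 4 for Aen (0.891, 11.8 FPKM against 4.75 to 5.53), while replicate 1 was low for Phlda3 (0.851, 0.925 FPKM against 2.81 to 3.14) and Sesn1 (0.931, 2.12 FPKM against 4.28 to 4.44). KD blastocyst replicate 5 was high for Casp9 (0.894, 1.72 FPKM against 0.758 to 0.860). Why these libraries stood apart was not tested.

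The effect of the KD differed between morulae and blastocysts in the interaction test for 4 of 34 members, or 11.8%, beside 11.7% of all genes tested. The difference on the log2 scale was 1.06 for Trp53, 1.14 for Plk2, 1.14 for Gadd45b and -0.94 for Mdm4. The calls of Trp53, Plk2 and Mdm4 were lost in 11, 11 and 10 of the 15 fits with 1 library left out, and that of Gadd45b in 0. What lies behind these differences was not tested.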

How the results depend on the processing

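No called result turned its direction. Of 115 results of members that were tested and not called, 37 turned in 1 or more fits (90 of 2138 fits, none of them called), with main log2 fold changes of at most 0.26 in size; among them, in morulae with FPKM as deposited, were Trp53 (0.10 to -0.03) and Gtse1 (0.03 to -0.08). Another 34 of these fits called a result in its main direction. Of 1262 gene results with a library left out, 1126 kept their call and 136 lost it, and of 849 under other settings 801 kept it. Members called higher numbered 6 to 12 in morulae, 23 to 27 in blastocysts and 1 to 6 in the interaction over the fits with 1 library left out; called lower, they numbered 0 to 2 in blastocysts and 0 to 1 in the interaction, and 0 to 0 in 2-cell embryos and morulae. Over all genes in these fits, those called higher numbered 140 to 558 in morulae, 1493 to 1875 in blastocysts and 413 to 865 in the interaction. Among the members, upregulated DEGs numbered 5 to 8 in morulae and 14 to 17 in blastocysts. In control embryos, 13 to 15 rose and 13 to 14 fell from 2-cell embryos to morulae, and 5 to 9 rose and 10 to 13 fell from morulae to blastocysts; KD blastocysts against control morulae had 15 to 21 higher and 3 to 3 lower.

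Without the filter, where 32900 genes were tested in morulae and 34540 in blastocysts, 3 members were higher and 3 were upregulated DEGs in morulae, 0 were lower in blastocysts, the interaction had 1 higher and 0 lower, and 5 rose between control morulae and blastocysts. Of all genes, 129 were then higher and 283 lower in morulae, against 464 and 995 of 10989 with the filter. In blastocysts 1799 were higher and 2068 lower, against 1977 and 2344 of 11828. A pseudocount of 5, which shrinks fold changes of low genes by construction, left 3 upregulated DEGs in morulae and 6 in blastocysts. With FPKM as deposited, 1 member was lower in blastocysts and 0 in the interaction; the cause was not tested. That setting moved the median of all genes from 0.02 to -0.09 for the KD in morulae, from 0.00 to -0.05 in 2-cell embryos, from 0.03 to 0.14 between control 2-cell embryos and morulae, from -0.01 to 0.11 in the interaction and from -0.02 to 0.03 for KD blastocysts against control morulae; upper quartile scaling moved it to 0.06 for the KD in morulae and 0.05 in blastocysts. Of all genes called in morulae, 31.8% were higher, against 15.3% with FPKM as deposited and 42.4% with upper quartile scaling.

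Deviations of same-numbered control and KD libraries correlated from -0.110 to 0.353, so the numbers were not taken as pairs. In morulae low and high numbers set libraries apart, as all 6 pairs of a control and a KD library within a range of numbers correlated positively (0.0943 to 0.346) and all 6 across ranges negatively (-0.278 to -0.0944), and in 2-cell embryos 5 of 6 and 1 of 6 pairs were positive, in blastocysts 6 of 10 and 2 of 6. What libraries of a range share is not stated. With a replicate block, 7 members were higher and 5 were upregulated DEGs in morulae, and 25 were higher, 2 lower and 17 upregulated DEGs in blastocysts; Btg1 in morulae and Polk and Apaf1 in blastocysts were no longer called (adjusted p of 0.144, 0.0547 and 0.0753), while Eda2r was called in morulae (0.85, adjusted p = 0.0105). Not every library correlated best with its own number. When low and high replicate numbers were entered as batches, 9 were higher in morulae, with Phlda3 and Tnfrsf10b added (adjusted p of 0.0489 and 0.0301), and 26 in blastocysts, without Apaf1 (adjusted p = 0.0524). Of all 10989 genes tested in morulae, 464 were higher in the main fit, 649 with the replicate block and 777 with the batches. Of the 11828 in blastocysts, these counts were 1977, 2110 and 2069.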
